A study of Mus musculus with 3 samples.

Results

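Ifi27l2a and Ifi27 are the members of the mouse Ifi27 gene family with more than single UMIs in these retinal libraries, 2 of the 32285 genes in the deposited matrices. They were chosen by their symbols, because earlier results of these data had placed Ifi27l2a among the genes with the largest old to young difference in endothelial cells. That difference is therefore given as a description, and nothing is supported with it. The retinas came from C57BL/6JRj mice of 3 ages, called young at 3 months, adult at 12 and old at 23, with no genetic change or treatment named. Retinas were dissociated, cells were enriched with CD31 microbeads (CD31 is an endothelial surface protein), and the retinas of 2 mice were pooled into 1 droplet library per age. An animal therefore cannot be told apart from its library, and age cannot be told apart from the library that stands for it. No test was possible, and every interval below is an exact 95% interval that covers counting error only. Where a count is 0, the limit given is that of 3 counts of the total.

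The Ifi27 family, also called ISG12 or FAM14, encodes small hydrophobic proteins that interferons induce and that are found at membranes, mitochondrial membranes among them. Interferons bind receptors that act through JAK kinases on transcription factors, which switch on interferon-stimulated genes. ISG12 proteins have been reported to bind NR4A nuclear receptors and to sensitise cells to mitochondrial apoptosis. In the retina, endothelial cells line the vessels, pericytes and smooth muscle cells wrap them, and Müller glia span the neural layers and contact the vessels with their endfeet.

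Both genes lie next to each other on mouse chromosome 12 (GRCm38, GENCODE M21). Ifi27 (ENSMUSG00000064215) runs from 103434211 to 103440239 on the plus strand, with 9 annotated transcripts of 3 to 7 exons. Ifi27l2a (ENSMUSG00000079017) runs from 103442167 to 103443680 on the minus strand, with 1 transcript of 4 exons. The genes converge, with 1927 bases between their ends. Their transcripts shared 0 words of 31 bases on either strand, so a read of that length belongs to one or the other. The remaining family gene, Ifi27l2b, shared 26 such words with Ifi27l2a, and it had 1 UMI in each library over all kept cells. A UMI (unique molecular identifier) stands for 1 captured transcript. The genes were counted from their ends near the poly(A) tail and the counts were not divided by length, so levels of Ifi27l2a and Ifi27 are not ranked against each other.

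The libraries held 1706 young, 1957 adult and 1697 old cells after filtering, with median depths of 6356, 5964 and 6296 UMIs per cell. Clusters were named from marker genes and were built without interferon-related genes, the members included. CD31 enrichment left many other cells: endothelial-like cells numbered 446, 427 and 406, against 311, 250 and 227 droplets that carried endothelial and mural markers together. All 7 endothelial markers were detected in the endothelial-like cells of every library, at a summed 11689, 11950 and 11802 CPM (UMIs of a gene for each 1000000 UMIs of the class in that library). Of the subclusters, 26 young, 32 adult and 39 old cells were arterial-like. Another 223 cells of 1 cluster met the endothelial markers too, but were shallow with none of those markers among their leading genes, and they stayed unnamed. The libraries shared at most 3 cell barcodes in any pair.

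**Figure D1:**
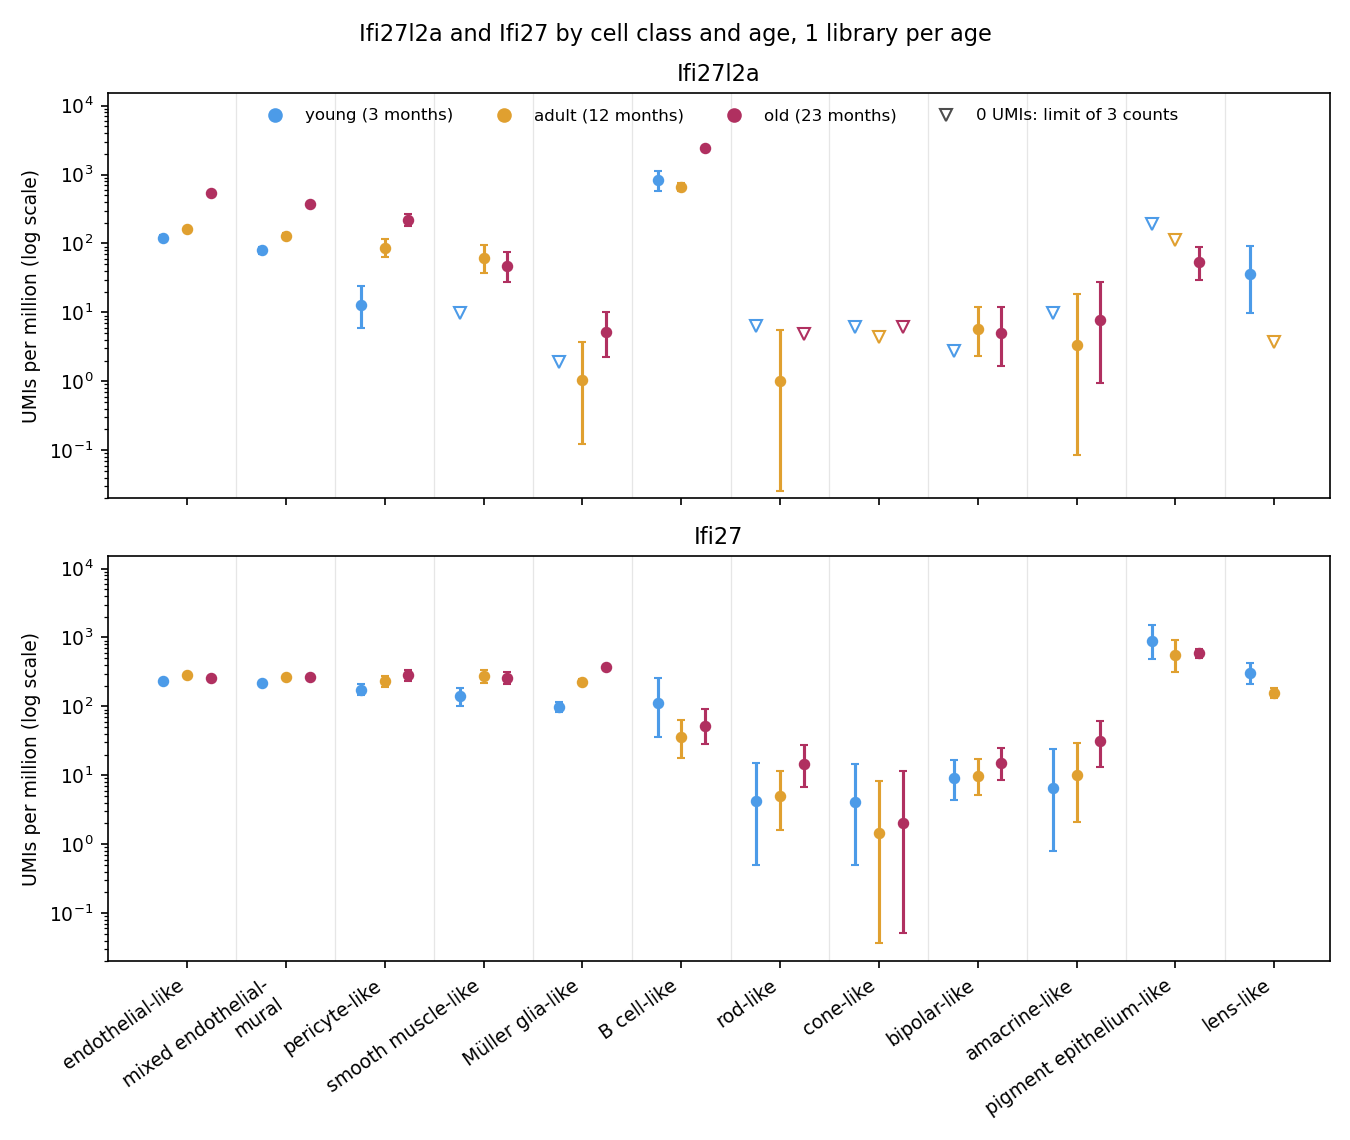
Levels of Ifi27l2a (top) and Ifi27 (bottom) in CPM on a log scale, by cell class, with 1 point per library and exact 95% Poisson intervals, which cover counting error only. Open triangles mark 0 UMIs and stand at the limit of 3 counts. Ifi27l2a reached 533 in old endothelial-like cells and was near 0 in Müller glia-like and neuronal cells, whereas Ifi27 was between 98.9 and 372 in Müller glia-like cells.

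In endothelial-like cells the members differed in how they stood with age. The young library had 120 CPM of Ifi27l2a (109 to 133), the adult library 160 (147 to 174), the old library 533 (509 to 557). The old value lay above both others, and the step from young to adult was the smaller one, a ratio of 1.33 (1.16 to 1.52), against 3.33 (3.03 to 3.67) from adult to old. That first step depended on the cells counted: it was 0.941 (0.766 to 1.16) with arterial-like, capillary-like and venous-like cells alone. Old to young, the ratio was 4.43 (3.97 to 4.95), rank 16 of 8977 genes, of which 4.98% were more than 1.5-fold higher. For Ifi27 the corresponding levels were 233 CPM (216 to 250), 289 (271 to 307) and 255 (239 to 272). Its highest value was the adult one, with an adult to young ratio of 1.24 (1.13 to 1.37), and neither member was among the 2.76% of 8865 genes past 1.5-fold in that comparison. Old to young, the Ifi27 ratio was 1.10 (0.994 to 1.21), close to the median of 1.02 over all genes. Pericyte markers in the same cells summed to 1798, 1867 and 1109 CPM, Müller glia markers to 715, 869 and 1076, erythroid markers to 555, 203 and 1390 and rod markers to 56.5, 93.5 and 121. Their part in the Ifi27l2a values was not tested. Defining markers of B cells, another class with much Ifi27l2a, were at a summed 5.52, 27.0 and 6.86 CPM.

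More cells carried Ifi27l2a in the old library, and fewer of its UMIs sat in a few cells. At least 1 Ifi27l2a UMI was found in 20.6% of young, 26.5% of adult and 54.9% of old endothelial-like cells. With each cell thinned to 2000 UMIs the shares were 12.6%, 14.7% and 36.7%, so the old cells were also higher at equal depth. Median depths of the whole cells were 5641, 6003 and 7491 UMIs. Cone-like cells had median depths of 7268, 6642 and 7315 UMIs and held Ifi27l2a in 0 of 244 cells, which allows a share of up to 1.23% at 3 counts. Among other neurons it was found in 9 of 483 bipolar-like cells, 1.86% (0.855 to 3.51), and in 3 of 143 amacrine-like cells, 2.10% (0.435 to 6.01), all far below the endothelial-like shares. The 10% of endothelial-like cells with the most Ifi27l2a held 86.0% of its UMIs in the young library, 79.7% in the adult and 55.7% in the old. The highest single cells held 53, 54 and 52 UMIs, but high counts were rare outside the old library: 3 young, 1 adult and 24 old cells held 23 or more. Without that richest 10% of cells the level was 19.9 CPM in young, 37.8 in adult and 277 in old cells, an old to young ratio of 14.0. This cut, made on the gene itself, took 45 of the 92 young and 41 of the 223 old cells that carried it. With fewer young carriers, a higher ratio thus follows in part from the cut. Cells with 5 or more UMIs made up 5.16%, 9.13% and 27.6%. Ifi27 was spread far more evenly: the 10% of cells richest in it held 35.6%, 32.1% and 31.8% of the UMIs, and 70.2%, 76.8% and 77.1% of cells carried it. Thinned, the Ifi27 shares were 35.6%, 45.0% and 39.7%.

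**Figure D2:**
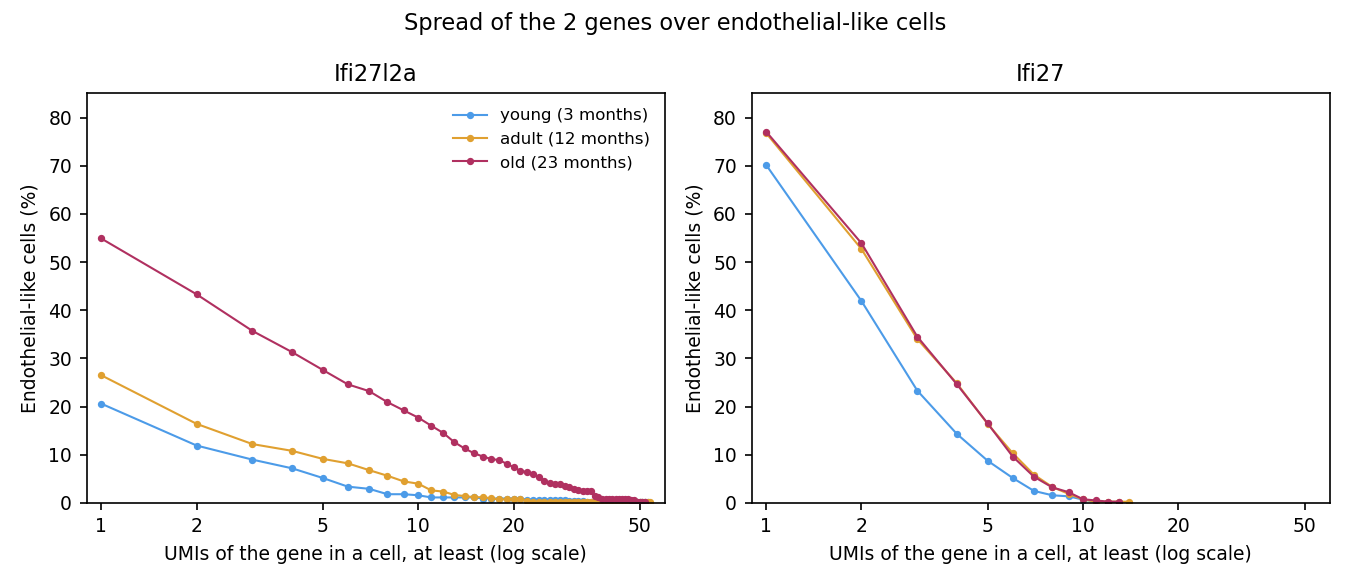
Share of endothelial-like cells (%) with at least the number of UMIs on the x axis (log scale), for Ifi27l2a (left) and Ifi27 (right), with 1 line per library. The old Ifi27l2a line starts at 54.9% and the young one at 20.6%, while the Ifi27 lines start between 70.2% and 77.1%.

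Carrying one member and carrying the other were not seen to go together in single endothelial-like cells. At 2000 UMIs, Ifi27l2a was found in 13.5% of young cells with Ifi27 and in 12.1% (8.56 to 16.6) of those without, which overlap. In the old library these shares were 34.4% (27.1 to 42.3) and 38.3% (32.1 to 44.7), again overlapping. Other interferon-stimulated genes were set beside Ifi27l2a in the same way. Irf7, a transcription factor that amplifies interferon responses, was found in 23.4% of young cells with Ifi27l2a and 20.1% of those without. In the adult library the Irf7 shares were 42.6% and 19.9% (15.8 to 24.6), whose intervals do not overlap, and in the old library 47.7% and 38.6%, whose intervals do. Ifit3, an antiviral tetratricopeptide protein, was found in 41.6% of old cells with Ifi27l2a and 26.8% (21.4 to 32.7) of those without, and these intervals do not overlap. The adult Ifit3 shares of 31.1% (19.9 to 44.3) and 15.5% (11.9 to 19.8) did not overlap either, whereas in the young library they were 14.9% and 15.7%. Isg15, a ubiquitin-like modifier, had 34.0% and 36.3% in the young library, 55.7% and 37.2% in the adult and 64.4% and 53.9% in the old, each pair with overlapping intervals. B2m, the light chain of class I histocompatibility molecules, was found in all old cells with Ifi27l2a (97.6 to 100%) and in 93.3% (89.5 to 96.1) of those without, which do not overlap, but the B2m intervals did in the young library (78.7% and 74.7%) and the adult (90.2% and 80.4%). Bst2, which holds budding virus at the membrane, had overlapping intervals in all 3 libraries. Cells of 1 library are not replicates, so these shares describe the libraries.

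Of the 3 named endothelial subclusters the arterial-like one had the highest Ifi27l2a at every age, although in the adult library its interval overlapped those of venous-like and of the remaining endothelial cells. There the young library had 423 CPM (349 to 508), the adult library 244 (186 to 315), the old library 822 (732 to 920), from 113, 59 and 302 UMIs. The adult arterial-like value lay below the young one, a ratio of 0.577 (0.414 to 0.798), while the old to young ratio was 1.94 (1.56 to 2.44). Of these UMIs, 3 of 26 young cells held 57.5%, 4 of 32 adult cells 74.6% and 4 of 39 old cells 44.4%. Without those cells the levels were 192, 79.3 and 530 CPM. The intervals do not cover such clumping over cells. Of the 3 named subclusters, capillary-like cells had the lowest young and adult levels, 48.3 CPM (34.7 to 65.5) and 75.7 (58.9 to 95.8). Their old level was 487 (444 to 533). Their old to young ratio of 10.1 (7.32 to 14.2) was the largest of the 3 named subclusters. Venous-like cells stood at 129, 188 and 587 CPM, with a ratio of 4.56 (3.25 to 6.56). The remaining cells of the endothelial clusters stood at 108, 185 and 486 CPM, with a ratio of 4.49 (3.85 to 5.26), and were of several kinds. A subcluster of 101, 98 and 98 cells met 5 of the 11 arterial markers, but haemoglobin genes led it and it was not named. It had 160 CPM (134 to 189), 180 (154 to 209) and 559 (513 to 609). The other 4 subclusters met as many or more markers of pericytes, rods or Müller glia as of an endothelial subtype (187, 171 and 142 cells), and pericyte genes led the one of 62, 68 and 48 cells. Together these 4 had 63.8 CPM (49.0 to 81.6), 189 (163 to 219) and 410 (369 to 453). Without them the endothelial-like ratio was 3.96 (3.51 to 4.47) old to young and 1.02 (0.877 to 1.19) adult to young. The adult to young ratio was 1.57 (1.05 to 2.37) in capillary-like and 1.46 (0.964 to 2.25) in venous-like cells alone. A small one of them, of 17, 33 and 22 cells with rod genes among its leading genes, had 985 CPM (774 to 1237) in the old library, which overlapped the arterial-like level, and an old to young ratio of 11.1 (4.14 to 41.7) from 4 young UMIs. In the old library capillary-like and the remaining endothelial cells had overlapping intervals, and arterial-like cells lay above venous-like cells by a ratio of 1.40 (1.18 to 1.66).

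The arterial excess of Ifi27l2a was thus wide in the young library and narrow in the old. Arterial-like to all other endothelial-like cells, the young ratio was 4.53 (3.61 to 5.66), the adult ratio 1.59 (1.19 to 2.09), the old ratio 1.64 (1.45 to 1.86). Of all genes in those comparisons 14.3%, 12.5% and 12.9% were more than 1.5-fold higher in arterial-like cells, so past that size Ifi27l2a was 1 of many, and it ranked 49 of 6931 in the young library and 672 of 7336 in the old. The young ratio moved with how arterial cells were counted: it was 1.79 with finer endothelial clusters and 2.87 with cells that held 3 or more arterial markers, and 13.6 as a mean over cells. Over all alternatives tried, the young ratio ranged from 1.79 to 19.7 and the old ratio from 1.23 to 2.06. Without cells of mixed markers the old ratio was 1.33 (0.962 to 1.80), which includes 1. With the subcluster led by haemoglobin genes counted as arterial, the ratios were 3.33 (2.70 to 4.12) in the young library and 1.33 (1.21 to 1.46) in the old. With the arterial cluster found in the whole suspension (47, 59 and 75 cells) the levels were 314, 293 and 736 CPM, and the adult to young ratio was then 0.931 (0.734 to 1.18), so the lower adult arterial value was not seen with that cluster. Erythroid markers in it summed to 4.43, 30.1 and 4693 CPM and pericyte markers to 1260, 1118 and 417, against 3.74, 33.1 and 27.2 and 498, 261 and 229 in the arterial-like subcluster, and their part was not tested. That subcluster met 10 of the 11 arterial markers and also 3 smooth muscle markers, whose part was not tested either. Ifi27 was not seen higher in arterial-like cells. Its arterial-like levels were 198, 265 and 223 CPM against 236, 290 and 258 in the other endothelial-like cells, ratios of 0.842, 0.911 and 0.864 whose intervals all held 1. Counted in some other ways the old interval lay below 1, as with the arterial cluster of the whole suspension, at 0.726 (0.603 to 0.868).

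**Figure D3:**
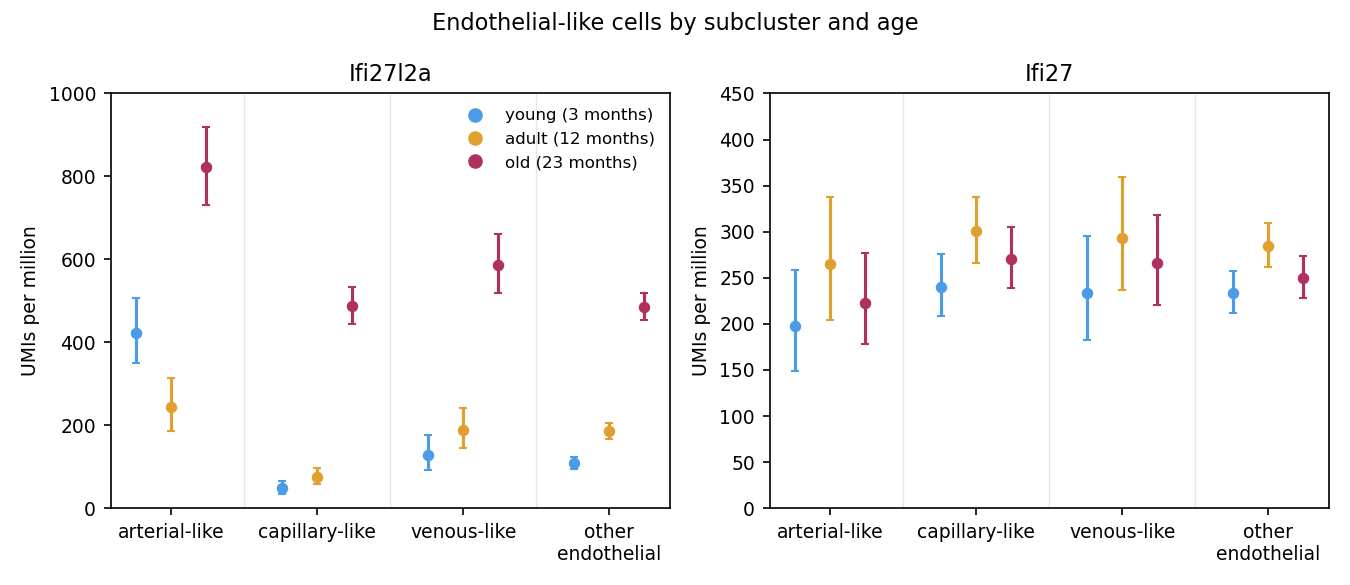
Levels of Ifi27l2a (left) and Ifi27 (right) in CPM, in the 3 named endothelial subclusters and the remaining endothelial cells, with 1 point per library and exact 95% Poisson intervals for counting error. Arterial-like Ifi27l2a was 423, 244 and 822 at the 3 ages, capillary-like Ifi27l2a went from 48.3 to 487, and Ifi27 stayed between 198 and 301 in all of them.

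Ifi27l2a also differed between ages in mural cells, but on few UMIs, which in adult and old pericyte-like cells came mostly from droplets that held endothelial transcripts. Pericyte-like cells (171, 129 and 100 cells) had 12.8 CPM in the young library (5.84 to 24.2), 86.6 in the adult library (63.9 to 115) and 219 in the old library (180 to 265), from 9, 48 and 106 UMIs. Ifi27l2a was found in 3.51%, 10.1% and 28.0% of these cells, and 10 old cells held 75.5% of the old UMIs. The old to young ratio of 17.2 (8.72 to 38.6) ranked 3 of 3861 genes, of which 7.64% were more than 1.5-fold higher. Adult to young, the ratio was 6.78 (3.29 to 15.7), also rank 3, of 4029 genes with 5.61% past 1.5-fold. Endothelial markers in pericyte-like cells summed to 7.04%, 7.79% and 8.71% of their level in endothelial-like cells. In old pericyte-like cells, 97 of the Ifi27l2a UMIs came from the 50 cells that held 2 or more endothelial markers, at 327 CPM (266 to 400), and 9 came from the other 50 cells, at 48.1 (22.0 to 91.4). In the adult library 41 of the 48 UMIs came from 63 cells with such markers, at 133 CPM (95.5 to 180), against 28.5 (11.4 to 58.6) in the others. In the young library these levels were 8.06 (1.66 to 23.5) and 18.0 (6.62 to 39.3), so cells with endothelial markers were not higher there. Leaving such cells out at every age, the old to young ratio was 2.67 (0.848 to 9.11). Leaving out cells with 2 or more markers of any other class, it was 0.876, from 2 old and 6 young UMIs. Most of the old pericyte-like Ifi27l2a UMIs thus came from droplets that also held endothelial transcripts, which were deeper as well, with a median of 5277 UMIs against 3585. All 7 B cell markers were at 0 in young and old pericyte-like cells. Smooth muscle markers summed to 980, 2243 and 1759 CPM there, erythroid markers to 19.9, 39.7 and 393 and T or NK cell markers to 11.4, 14.4 and 26.9, with 5 of the 6 T or NK cell markers at 0, and the part of these lists was not tested.

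Smooth muscle-like cells (38, 37 and 37 cells) had 0, 19 and 17 Ifi27l2a UMIs, so the adult library had 61.4 CPM (37.0 to 95.9) and the old library 47.3 (27.6 to 75.8). In the adult library 1 cell held 11 of the 19 UMIs, whereas the highest old cell held 3. The adult and old levels overlapped, and the 0 of the young library allows up to 9.75 CPM. Droplets with both endothelial and mural markers stood between the classes, at 79.2, 128 and 377 CPM, with an old to young ratio of 4.77 (4.24 to 5.38).

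Ifi27 was higher in old mural cells too, by less. In pericyte-like cells it stood at 175 CPM (145 to 208), 231 (193 to 275) and 281 (236 to 333), an old to young ratio of 1.61 (1.25 to 2.08). Without cells that held 2 or more endothelial markers this ratio was 1.15 (0.760 to 1.72), which includes 1. In smooth muscle-like cells Ifi27 levels were 140 CPM (101 to 188), 275 (219 to 340) and 262 (212 to 320). The old to young ratio of 1.87 (1.29 to 2.75) compares with 9.06% of 1975 genes past 1.5-fold. The adult and old smooth muscle-like levels overlapped, so the step lay between the young library and the other two. Pericyte markers in smooth muscle-like cells summed to 9197, 8563 and 4603 CPM, which is 38.6%, 36.0% and 19.3% of their level in pericyte-like cells, and their part in these values was not tested.

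**Figure D4:**
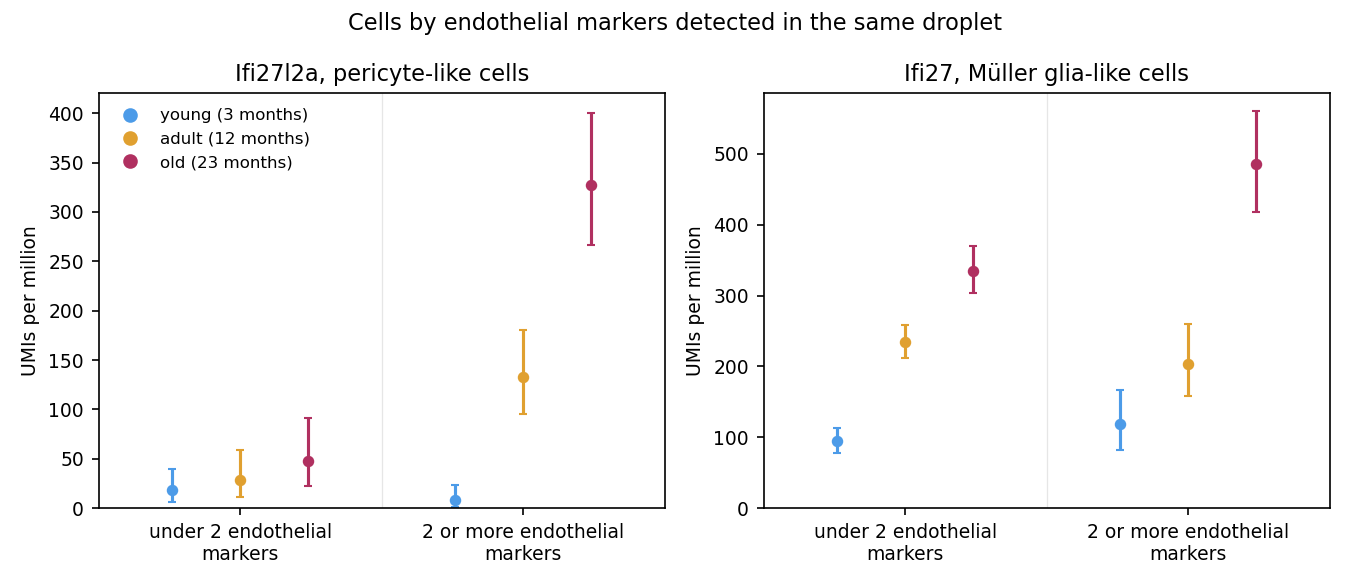
Levels in CPM of Ifi27l2a in pericyte-like cells (left) and of Ifi27 in Müller glia-like cells (right), for cells with under 2 and with 2 or more endothelial markers, with 1 point per library and exact 95% Poisson intervals for counting error. Old Ifi27l2a in pericyte-like cells was 48.1 against 327, whereas Ifi27 in Müller glia-like cells stepped up with age in both sets, from 94.5 to 335 and from 119 to 486.

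Müller glia-like cells showed the converse pattern, with Ifi27 higher at each age and Ifi27l2a almost absent. Ifi27 stood at 98.9 CPM (83.9 to 116) in 175 young cells, 229 (209 to 252) in 214 adult cells and 372 (343 to 404) in 207 old cells. The 3 intervals do not overlap. The adult to young ratio was 2.32 (1.93 to 2.80), rank 53 of 7650 genes with 4.22% past 1.5-fold, and the old to young ratio was 3.76 (3.15 to 4.53), rank 6 of 7238 genes with 5.06% past 1.5-fold. The share of cells with Ifi27 went from 36.6% to 57.0% and 61.4%, and at 2000 UMIs from 15.8% to 29.8% and 40.1%. The largest count in 1 cell was 10, 19 and 29 UMIs. Ifi27l2a had 0, 2 and 8 UMIs in the same cells, so old endothelial-like cells held 103 (52.2 to 239) times its level.

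Endothelial markers in Müller glia-like cells summed to 6.11%, 5.49% and 5.93% of their endothelial level, and the old Müller glia-like Ifi27 level lay above the old endothelial-like level of 255 CPM. In cells with under 2 endothelial markers Ifi27 was 94.5 CPM (78.5 to 113), 235 (212 to 259) and 335 (303 to 370), an old to young ratio of 3.54 (2.88 to 4.38). In cells with 2 or more it was 119 (82.1 to 167), 204 (158 to 260) and 486 (418 to 561), so the old cells with endothelial markers, which were deeper, lay above those without, and the part of these markers was not tested. Retinal pigment epithelium markers, from a layer that had 1, 7 and 54 cells, summed to 28.3, 22.6 and 51.7 CPM in Müller glia-like cells, which is 0.039%, 0.031% and 0.071% of their own level. Lens markers there summed to 8.35, 402 and 8.40 CPM and rod markers to 436, 1207 and 831 CPM, and the part of these lists was not tested. The class was made of a larger and a smaller cluster. The larger one (141, 180 and 160 cells) had Ifi27 at 107, 241 and 412 CPM, a ratio of 3.85 (3.21 to 4.65). The smaller one (34, 34 and 47 cells), with shallower cells, had 5, 17 and 12 UMIs, or 30.8, 103 and 67.4 CPM, and its old to young ratio of 2.19 (0.719 to 7.94) included 1.

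Other classes completed the order of levels. B cell-like cells (10, 76 and 57 cells) had the highest Ifi27l2a of any class named from 1 set of markers, 823 CPM (580 to 1134), 658 (570 to 755) and 2388 (2199 to 2589). The young and adult B cell-like levels overlapped, and the old to adult ratio was 3.63 (3.09 to 4.28). Ifi27 in the same cells was 111, 35.8 and 52.8 CPM, from 5, 11 and 13 UMIs, with overlapping intervals. Droplets with both T or NK cell and macrophage markers (9, 30 and 14 cells) had Ifi27l2a at 142, 629 and 1315 CPM. In the old library Ifi27l2a thus fell in the order B cell-like, endothelial-like and pericyte-like, with no overlap, and smooth muscle-like and retinal pigment epithelium-like cells followed with overlapping intervals. Without cells that held 2 or more endothelial markers, pericyte-like cells at 48.1 CPM overlapped those 2 classes. Old retinal pigment epithelium-like cells had the highest Ifi27, 591 CPM (501 to 692), above Müller glia-like cells. Pericyte-like, smooth muscle-like and endothelial-like cells came next, each overlapping its neighbour. Among neurons, Ifi27 was 4.17, 5.02 and 14.8 CPM in rod-like cells, 9.02, 9.90 and 15.2 in bipolar-like cells and 6.62 and 10.1 in young and adult amacrine-like cells. Old amacrine-like cells held 8 Ifi27 UMIs (13.4 to 61.0 CPM), the highest neuronal value, with an interval that overlapped the old bipolar-like and rod-like ones. Ifi27l2a had 0, 1 and 0 UMIs in rod-like cells.

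The interferon pathway was described from lists of ligands, receptors, regulators and targets. Of 10 interferon ligand genes, 8 had 0 UMIs in all kept cells, Ifnk had 2 in the young library and Ifng 3 in the adult. A ligand made outside the suspension would not appear here. Of the 9 receptor and signalling genes described, 1 was more than 1.5-fold higher in old endothelial-like cells, where 4.98% of all genes were, and their median ratio was 1.00 against 1.02 over all genes. It was the transcription factor gene Stat2 (1.56, 1.27 to 1.93), and Irf9, whose protein binds DNA together with STAT2, had 1.33 (1.12 to 1.57). The receptor chains Ifngr2 and Ifnar1, at 0.843 and 0.926, and the kinase Jak2, at 0.933, were the lowest of the list, with intervals that held 1. Of 6 regulators with enough UMIs 3 were higher: Irf7 at 2.98 (2.66 to 3.35), Usp18, which damps receptor signalling, at 1.64 (1.33 to 2.03), and Socs3, an inhibitor of cytokine signalling, at 1.54 (1.34 to 1.78). Irf3, Irf1 and Socs1 had 0.970, 1.01 and 1.34, with intervals that held 1.

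Most other interferon-stimulated genes were higher in old endothelial-like cells. None had a ratio above that of Ifi27l2a, which was chosen with its large difference known, so that order carries no weight. Of 24 counted, 18 were past 1.5-fold, against 4.98% of all genes, with a median ratio of 1.77 against 1.02, and at 2-fold 9 were, against 1.39% of all genes. Zbp1, a sensor of Z-form nucleic acids, was highest at 3.71 (2.40 to 5.94), which overlapped the Ifi27l2a interval (3.97 to 4.95). Ifi44 at 2.85 (2.39 to 3.40) and Ifit3b at 2.78 (2.25 to 3.47) followed. The lowest were Ddx58, which encodes the RNA sensor RIG-I, at 1.09 (0.892 to 1.33), Rsad2 at 1.37 (1.21 to 1.54) and Eif2ak2 at 1.42 (1.18 to 1.72). Ifi27, at 1.10, lay at the low end of this range. Adult to young, 2 of 24 were past 1.5-fold, against 2.76% of all genes. Arterial-like against other endothelial-like cells, 7 of 23 were more than 1.5-fold higher and 1 lower in the young library, 5 of 23 higher and 3 lower in the adult, and 0 of 24 higher and 5 lower in the old, where 14.3%, 12.5% and 12.9% of all genes were higher and 15.9%, 19.9% and 15.6% lower. These lists share the earlier knowledge of the data and are not independent evidence of direction.

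The same list had lower medians in pericyte-like and Müller glia-like cells, over fewer counted genes, and very few counted genes in smooth muscle-like cells. In pericyte-like cells 0 of 8 counted targets were past 1.5-fold, where 7.64% of all genes were, with a median of 1.24. The highest were Bst2 at 1.46 (0.953 to 2.23), B2m at 1.44 (1.16 to 1.80) and Psmb8 at 1.33, and the lowest Isg15 at 0.964 (0.626 to 1.47), Xaf1 at 1.06 and Ifi35 at 1.13. With a lower minimum of 20 UMIs, 7 of 21 were past 1.5-fold, against 12.7% of all genes, with a median of 1.38. In smooth muscle-like cells 3 of 3 were, against 9.06% of all genes: Isg15 at 12.0 (4.43 to 45.5), B2m at 3.58 (2.23 to 5.99) and Ifitm3 at 1.81 (1.42 to 2.32). At 20 UMIs 4 of 5 were, against 15.3% of all genes, with a median of 1.81. In Müller glia-like cells 6 of 19 were, against 5.06% of all genes, and 1 was past 2-fold, against 0.829%, with a median of 1.27, led by Rsad2 at 2.64 (1.57 to 4.59), Ddx58 at 1.83 (1.12 to 3.04) and Gbp2 at 1.78 (1.03 to 3.16), while Isg15 was at 1.04 (0.820 to 1.33). The lowest there were Ifit2 at 0.929, Gbp3 at 0.945 and Ifih1 at 0.950, with intervals that held 1. None of the Müller glia-like targets reached the Ifi27 ratio of 3.76, but the Rsad2 interval overlapped that of Ifi27 (3.15 to 4.53). Müller glia-like Socs3 stood at 1.70 (1.47 to 1.98). Of the reported partners of ISG12 and the mitochondrial apoptosis genes, 0 of 10 were more than 1.5-fold higher in old endothelial-like, 0 of 6 in pericyte-like, 0 of 8 in Müller glia-like and 1 of 4 in smooth muscle-like cells, beside 4.98%, 7.64%, 5.06% and 9.06% of all genes. At 20 UMIs 1 of 8 in pericyte-like cells was higher, where 12.7% of all genes were, and 3 of 9 in smooth muscle-like cells were higher and 1 lower, where 15.3% and 9.55% of all genes were. In endothelial-like cells they ranged from Bcl2 at 0.827, Bak1 at 0.916 and Xpo1 at 0.920 to Cycs at 1.09, Bax at 1.10 and Nr4a2 at 1.14, all with intervals that held 1. Nr4a1, the best known partner, had ratios of 1.03 (0.865 to 1.22) in endothelial-like, 0.958 (0.606 to 1.51) in Müller glia-like and 1.51 (1.10 to 2.07) in smooth muscle-like cells.

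**Figure D5:**
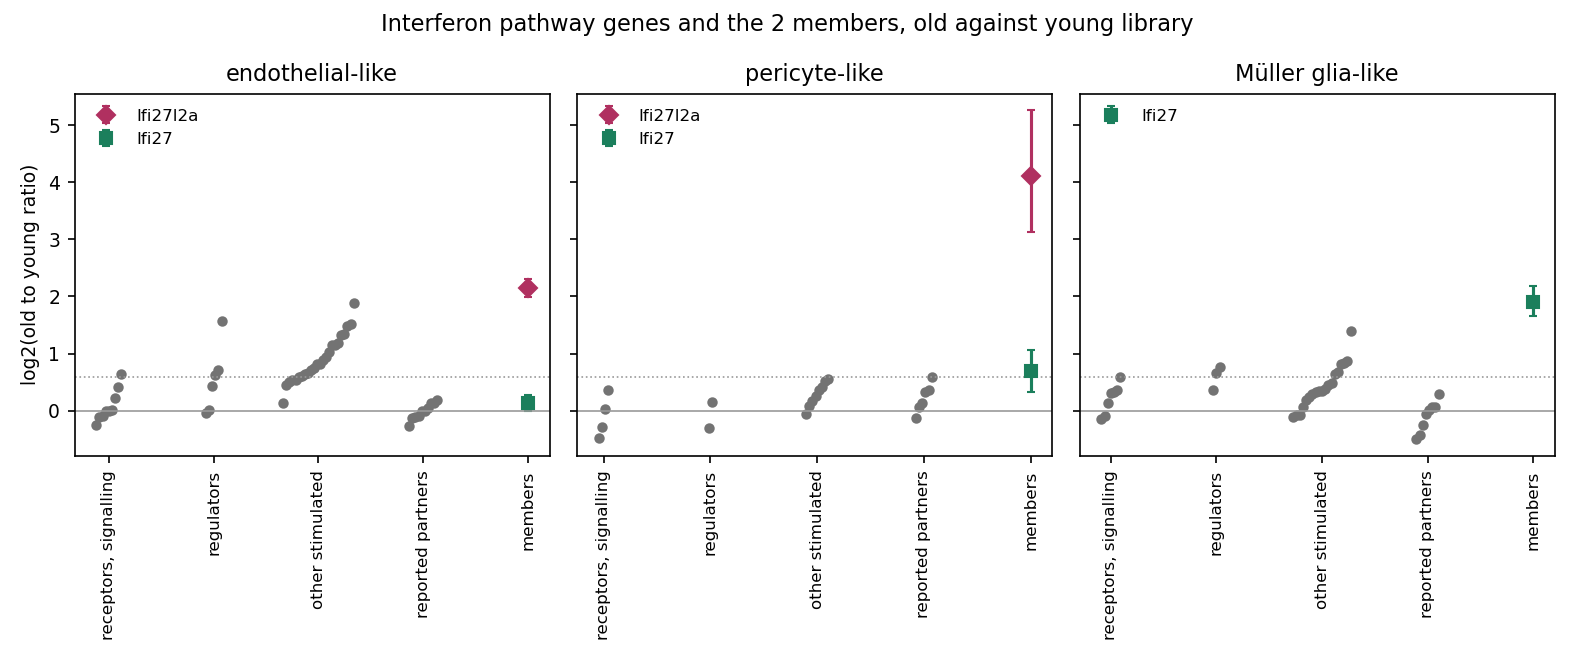
Old to young ratio of CPM on a log2 scale, for each counted gene of 4 lists (grey points) and for the members (coloured, with exact 95% intervals for counting error), in endothelial-like, pericyte-like and Müller glia-like cells. The dotted line marks 1.5-fold. The Ifi27l2a ratio lies above that of every list gene in endothelial-like cells (4.43 against 3.71 for Zbp1). The Ifi27 ratio lies above that of every list gene in Müller glia-like cells (3.76 against 2.64 for Rsad2). In each pair the intervals overlap, so the order is not separated within counting error.

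The neighbouring gene with enough UMIs to compare did not share these differences. It was Ddx24, an RNA helicase gene on the Ifi27 side of the pair (103407982 to 103425830). Its old to young ratios were 1.04 (0.925 to 1.18) in endothelial-like, 0.999 (0.736 to 1.35) in pericyte-like and 1.14 (0.933 to 1.40) in Müller glia-like cells. On the Ifi27l2a side Ppp4r4 had at most 6 UMIs and Serpina10 had 0 in these classes of any library, so that side could not be compared.

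Across 28 combinations of class and library, Ifi27l2a and Ifi27 levels were only loosely related (Pearson's r of 0.56 on the scale log2(CPM + 1)). These points share libraries and cell classes, so r is a description. Of 12431 genes, those whose levels most resembled Ifi27l2a were H2-D1, a class I histocompatibility gene, Gm26510, Arpc3, Rin3, Ppp1ca, Irak3, Gimap6, Shisa5, H2-T23 and Chst15, with r from 0.91 to 0.86. Those most like Ifi27 were Cyb5a, Timp3, Anxa5, Aldh2, Slc12a4, Atp6v0e, Cd151, Cers2, Slc25a39 and Capns1, with r from 0.95 to 0.92. Timp3 encodes an inhibitor of matrix metalloproteinases, and Aldh2 a mitochondrial aldehyde dehydrogenase. No gene was in both lists.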

How the data were processed

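The deposited count matrices hold whole UMI counts per gene and barcode that the authors made with Cell Ranger 6.1.2 on mm10, per the labels. The members and all gene lists were chosen with earlier results of these data known. Barcodes with 500 to 6000 genes and 1 to 20% mitochondrial UMIs were kept (1713, 1974 and 1713), and Scrublet (scanpy 1.11.5) removed 7, 17 and 16 as doublets. Libraries held 16577026, 19977238 and 17021820 UMIs. Cells were clustered with Seurat 5.3.0 (R 4.3.3; 30 components, resolution 0.5) without 193 interferon-related genes, and endothelial-like cells again with 15 components. Clusters were named from marker lists by thresholds set after the clusters were seen: 3 or more markers in at least 20% of cells. A cluster under a limit of depth whose leading genes held no marker of the name was left unnamed. That cluster had a median depth down to 0.288 of its library's median. The smaller Müller glia-like cluster, down to 0.430, had no such marker among its leading genes either, but was named. Subclusters were named where 3 or more markers were 1.5-fold higher, more than of any other class, and no other class's marker led them without one of the name.

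Counts were summed per class and library and divided by the class total. With 1 library per age no test was made, and genes are called past 1.5-fold with at least 50 UMIs. Named genes are the members, the 10 most similar genes, and counted genes of the lists, with the 3 highest and 3 lowest of the lists described at length. 1 gene of the receptor and signalling list is not reported here and was left out of its counts. The interval code was tested on simulated Poisson counts. These lack the clumping over cells seen here, so how well the intervals hold for the real counts was not tested. The RefSeq promoter table held neither member, and no sequence is printed.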

Additional observations from a re-analysis of the deposited data

Results flagged for a closer look

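Ifi27l2a went opposite ways from young to adult in different cells. It was lower in adult arterial-like cells, with a ratio of 0.577, and higher in adult capillary-like cells (1.57), other endothelial cells (1.71) and pericyte-like cells (6.78). With the arterial cluster of the whole suspension the arterial ratio was 0.931 (0.734 to 1.18), 41 of the 48 adult pericyte-like UMIs came from cells with 2 or more endothelial markers, and the other endothelial cells included subclusters led by genes of other classes. The difference was not tested, since each age has 1 library.

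Ifi27 went opposite ways from adult to old: it was lower in other endothelial cells, with a ratio of 0.877, and higher in Müller glia-like cells, with a ratio of 1.62. This difference was not tested either.

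Barcodes outside the limits on genes and mitochondrial share, which enter no comparison above, held Ifi27l2a at 353 CPM (334 to 372) in the old library, against 102 (90.9 to 115) in the young and 74.4 (66.7 to 82.9) in the adult. Ifi27 there was 138, 140 and 162 CPM.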

How the results depend on the processing

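No paired analysis was possible because each age has 1 library, and no replicate was left out for the same reason. Every alternative below changes the cells, the scale, a threshold or the pseudocount within those libraries. Depth limits the smooth muscle-like, arterial-like and pericyte-like Ifi27l2a values, which rest on few UMIs. The alternatives for Müller glia-like and pericyte-like cells and the young arterial ratio, and those that leave out the richest cells, change the subclusters used, add the mixed endothelial-mural droplets or the unnamed cluster, or use endothelial markers, were chosen after seeing the data. Leaving out the richest cells cuts on the compared gene itself, and takes a larger part of its UMIs where fewer cells carry it.

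In endothelial-like cells the old to young Ifi27l2a ratio of 4.43 became 3.57 without cells of mixed markers, 14.0 without the 10% of cells richest in the gene, 5.36 without arterial-like cells and 3.96 without unnamed subclusters that met markers of other classes, and 11 of 15 alternatives stayed within its interval. The adult to young Ifi27l2a ratio of 1.33 became 1.57 when cells were thinned, 1.90 without the richest 10%, 1.64 without arterial-like cells, 1.02 without those unnamed subclusters, and 0.941, on the other side of 1, with arterial-like, capillary-like and venous-like cells alone. Both Ifi27 ratios stayed within their intervals in 15 of 15 alternatives, from 0.995 to 1.21 old to young and from 1.23 to 1.35 adult to young. The old to young Ifi27 interval left out 1 when mitochondrial, haemoglobin and interferon genes were kept out of the scaling (1.01 to 1.22). It also did with cells classed by their own markers (1.04 to 1.25) and with the mixed endothelial-mural droplets added (1.10 to 1.25).

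The old arterial to other ratio of Ifi27l2a, 1.64, became 1.33 without cells of mixed markers (0.962 to 1.80, which includes 1), 1.33 with the unnamed subcluster that met arterial markers counted as arterial, 1.38 with cells of 3 or more arterial markers, 1.23 at resolution 1.0 and 2.06 without the richest 10%. The young ratio of 4.53 became 9.48 thinned, 13.6 as a mean over cells, 19.7 without cells of mixed markers, 2.87 with cells of 3 or more arterial markers, 1.79 at resolution 1.0, 3.53 with the arterial cluster of the whole suspension, 3.33 with the unnamed subcluster added and 14.7 without the richest 10%. The old Ifi27 ratio stayed within its interval in 12 of 12 alternatives, from 0.726 to 0.970, but its own interval left out 1 with the arterial cluster of the whole suspension (0.603 to 0.868), at resolution 1.0 (0.720 to 0.981) and with the unnamed subcluster added (0.693 to 0.921).

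In Müller glia-like cells the old to young Ifi27 ratio of 3.76 became 5.41 without the richest 10%, and the adult to young ratio of 2.32 became 3.06 in that way and 1.92 with stricter limits on cells. In pericyte-like cells the Ifi27l2a ratio of 17.2 became 8.20 when cells were classed by their own markers, 2.67 without cells holding 2 or more endothelial markers and 0.876 without cells of mixed markers, and it has no value without the richest 10%, which leaves 0 young UMIs. The pericyte-like Ifi27 ratio of 1.61 became 1.07 and 1.15 without cells of mixed or endothelial markers. The cause of these shifts was not tested.

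Of 24 other interferon-stimulated genes counted in old endothelial-like cells, 18 were past 1.5-fold and 9 past 2-fold, against 4.98% and 1.39% of all genes. In Müller glia-like cells 6 and 1 of 19 were, against 5.06% and 0.829%. In pericyte-like cells 0 of 8 were past 1.5-fold at a minimum of 50 UMIs and 7 of 21 at 20, against 7.64% and 12.7%. With a pseudocount of 10 CPM, 6 of the 10 genes most like Ifi27l2a and 5 of the 10 most like Ifi27 were the same.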
